A study of Mus musculus with 12 samples.

Results

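Transcripts of 8 genes that mark fat cells were followed through the 12 heart libraries of the series. The genes, Adipoq, Retn, Cfd, Plin1, Cidec, Cidea, Ucp1 and Car3, were chosen by their symbols as known fat cell genes, with earlier results of these data already known, and are 8 of the 16514 gene identifiers listed. Adipocytes store triglyceride in a lipid droplet, whose surface proteins control how fast the fat is broken down, and they release hormones called adipokines into the blood. White adipocytes mainly store fat, whereas brown adipocytes burn it for heat through an uncoupling protein in their mitochondria. A mouse heart carries some fat on its outside, around the base of the great vessels and in the surrounding tissue, and how much of it comes away with the heart can vary between dissections. In RNA from a whole organ, fewer fat cells and less RNA per fat cell cannot be told apart.

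The hearts came from male C57Bl/6J mice, 12 weeks old. The 4 groups, of 3 libraries each, were BCAA-free TAC, BCAA-free sham, control TAC and control sham. TAC, transverse aortic constriction, narrows the aorta and loads the left ventricle with pressure, and sham is the operation without the constriction. The BCAA-free diet held none of the branched-chain amino acids leucine, isoleucine and valine, the control diet held them in amounts like those of ordinary chow, and both diets carried 1% propionate. Each diet began 4 days ahead of the operation and went on until the hearts were collected 1 week after it, so no group here is without propionate. The labels name the tissue as heart and do not say how it was trimmed, which chambers were taken or whether each library is a different mouse. P-values thus reflect the scatter of these libraries, part or all of which could be technical.

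The libraries held 29929161 to 46101244 reads assigned to genes. Heart muscle genes (Myh6, Actc1, Tnnt2, Tnni3, Myl2, Ryr2, Myh7 and Nppa) summed to between 72113 and 84947 CPM (reads per gene scaled to the same total in each library) in every library, so the labelled tissue was present throughout. Levels are given as CPM per library, or as RPKM, which also divides by exon length, where genes are compared. Changes are log2 differences with their standard error (SE) and an adjusted p from limma, and 0.05 is the threshold. Control TAC library 3 stood apart in another tissue: 16 liver genes summed to 364 CPM there, led by Alb at 170 CPM. The 5 of these genes that all tables list summed to 83.7 CPM there, against 15.3 to 33.4 CPM in the other libraries.

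The bases just before the start of 3 of the genes are shown because these genes behaved differently in the hearts: Retn separated the diets, Adipoq followed individual libraries, and Ucp1 was seen mainly in a pair of libraries. Each line gives the 250 bases upstream of the start, 5′ to 3′, from RefSeq on GRCm38.p6. Capitals mark 3 of the 4 motifs searched on both strands. One is the CCAAT box. Another is a TATA-type box, spelled TATANA, whose matches can overlap each other. The third is an element bound by nuclear receptors, spelled AGGTCA. The motif bound by C/EBP factors, spelled TTGCNNAA, was searched too and has no match in these windows.
Retn (chr8:3655520-3655769, + strand): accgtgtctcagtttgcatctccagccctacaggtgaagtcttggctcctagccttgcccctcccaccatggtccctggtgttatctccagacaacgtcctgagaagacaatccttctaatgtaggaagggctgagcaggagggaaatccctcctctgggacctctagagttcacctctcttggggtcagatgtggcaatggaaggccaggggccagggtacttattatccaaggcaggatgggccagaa
Adipoq (chr16:23146286-23146535, + strand): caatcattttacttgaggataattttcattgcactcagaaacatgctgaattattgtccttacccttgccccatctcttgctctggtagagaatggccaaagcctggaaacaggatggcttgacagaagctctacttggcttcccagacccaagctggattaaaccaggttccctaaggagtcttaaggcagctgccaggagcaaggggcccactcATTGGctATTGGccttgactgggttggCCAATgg
Ucp1 (chr8:83290098-83290347, + strand): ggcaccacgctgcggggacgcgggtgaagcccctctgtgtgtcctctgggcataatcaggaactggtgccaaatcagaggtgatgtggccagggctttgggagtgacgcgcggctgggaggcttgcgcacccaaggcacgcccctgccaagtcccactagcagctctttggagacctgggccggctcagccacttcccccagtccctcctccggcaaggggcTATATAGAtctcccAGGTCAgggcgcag
Adipoq held 3 CCAAT boxes within 34 bases of its start, a motif found in 33.9% of all 32851 promoters in the table. Ucp1 held overlapping TATANA matches from 28 bases before its start, in a table where 22.6% of promoters hold that motif, and an AGGTCA 14 bases before it, a motif held by 14.0%. The Retn window held none of the 4 motifs. The C/EBP-type motif, found in 9.56% of promoters, occurred in the windows of Plin1 and of the second Cidec start. Sequences of 6 of the 8 genes were matched in the table, and Cidea and Car3 are named only. The motifs were chosen after the sequences were seen, and a match is a description of letters, not a site of binding.

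The most abundant of the 8 was not one of the adipokines. Per length, Cidea had the highest median over the 12 libraries, 25.9 RPKM, followed by Cfd at 8.01 RPKM and Car3 at 3.26 RPKM. Adipoq had a median of 1.40 RPKM, Cidec of 0.873 RPKM, Retn of 0.620 RPKM and Plin1 of 0.373 RPKM. Ucp1 was close to absent, with a median of 0.0354 RPKM. The genes also differed in how evenly they were spread: the coefficient of variation over the libraries was 10.5% for Cidea and between 70.1% and 228% for the other 7.

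**Figure D1:**
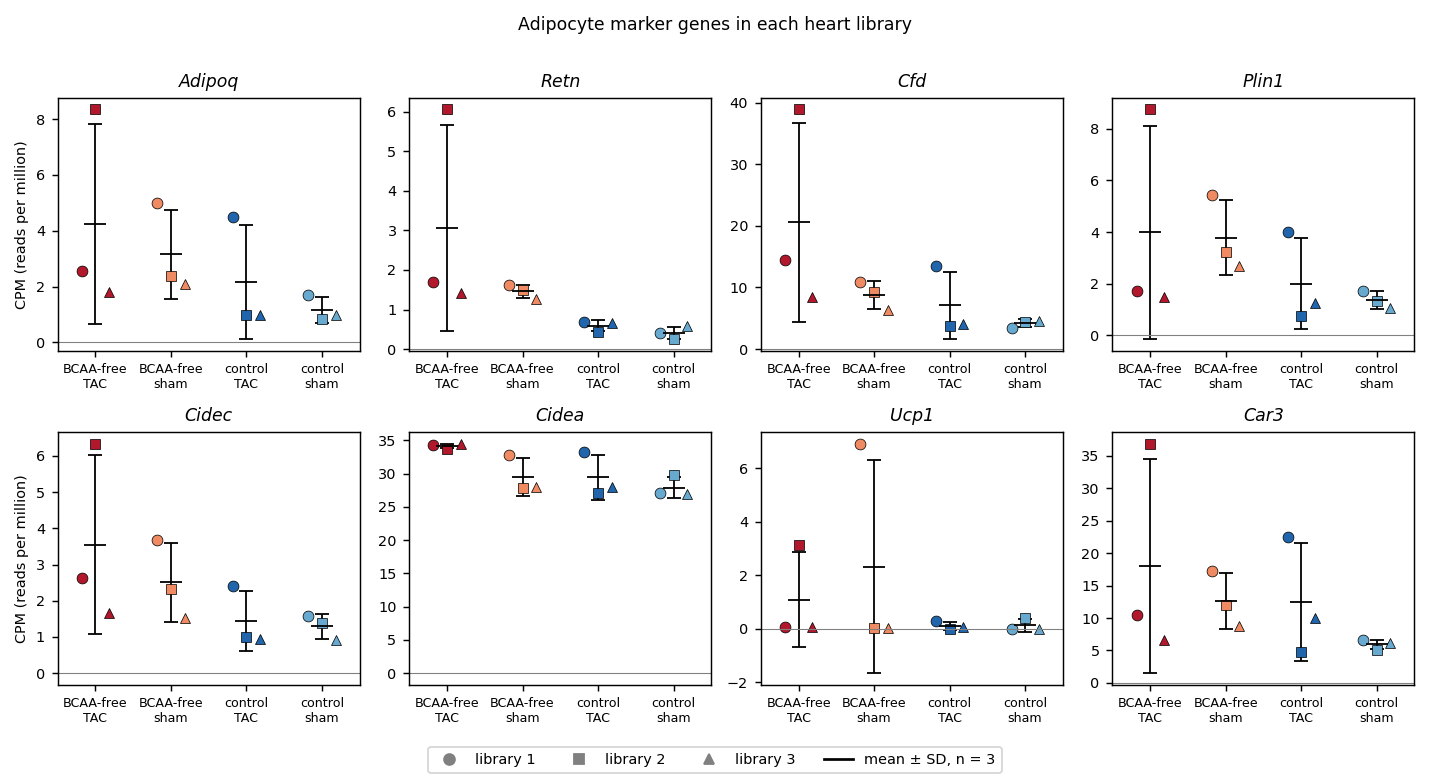
Level of each of the 8 adipocyte marker genes in CPM (y axis, from 0) in the 4 groups of hearts (x axis); each point is 1 library, and bars show the mean ± SD of 3 libraries. BCAA-free TAC library 2 (square) is the highest point for Adipoq, Retn, Cfd, Plin1, Cidec and Car3, and BCAA-free sham library 1 (circle) for Ucp1 at 6.93 CPM, while Cidea stays between 26.9 and 34.4 CPM.

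Among the adipokines, Adipoq (ENSMUSG00000022878, chr16:23146536-23158028, + strand) encodes adiponectin, a hormone made by fat cells that raises insulin sensitivity. It had 2.55, 8.35 and 1.80 CPM in BCAA-free TAC libraries 1, 2 and 3, and 4.98, 2.39 and 2.08 CPM in BCAA-free sham libraries. Control TAC libraries had 4.51, 0.989 and 0.967 CPM and control sham libraries 1.70, 0.840 and 0.972 CPM. BCAA-free TAC library 2, BCAA-free sham library 1 and control TAC library 1 stood well above the other libraries of their groups, and control TAC library 1 was above 4 of the 6 BCAA-free libraries.

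Retn (ENSMUSG00000012705, chr8:3655770-3660110, + strand) encodes resistin, an adipokine that in mice is made chiefly by white fat cells. Its levels were 1.70, 6.05 and 1.41 CPM in BCAA-free TAC libraries, and 1.61, 1.49 and 1.27 CPM in BCAA-free sham libraries. They were 0.689, 0.440 and 0.662 CPM in control TAC libraries, and 0.401, 0.258 and 0.572 CPM in control sham libraries. All 6 BCAA-free libraries lay above all 6 control libraries, which held for 1 of the 8 markers and for 0.75% of the 15458 genes tested over both operations. The lowest BCAA-free library held 47 Retn reads and the highest control library 29, so the separation rests on few reads.

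Cfd (ENSMUSG00000061780, chr10:79890853-79892655, + strand) encodes adipsin, complement factor D, which fat cells secrete and which starts the alternative complement pathway. It reached 14.4, 38.9 and 8.42 CPM in BCAA-free TAC libraries and 10.9, 9.23 and 6.35 CPM in BCAA-free sham libraries. The control TAC libraries gave 13.4, 3.77 and 4.12 CPM, and the control sham libraries 3.44, 4.46 and 4.63 CPM. Control TAC library 1 was again the one control library inside the range of the BCAA-free hearts.

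The lipid droplet genes fell into 2 patterns. Plin1 (ENSMUSG00000030546, chr7:79720218-79732903, minus strand) encodes perilipin, the coat protein of the large droplet that gates access of lipases. It had 1.73, 8.74 and 1.48 CPM in BCAA-free TAC libraries and 5.43, 3.23 and 2.70 CPM in BCAA-free sham libraries, against 4.01, 0.742 and 1.25 CPM in control TAC libraries and 1.74, 1.32 and 1.06 CPM in control sham libraries. All 3 BCAA-free sham libraries were above all 3 control sham libraries, but BCAA-free TAC libraries 1 and 3 lay inside the range of the control hearts. Cidec (ENSMUSG00000030278, chr6:113424634-113435760, minus strand), also called Fsp27, fuses droplets into the single large one of a white adipocyte. It had 2.64, 6.34 and 1.67 CPM in BCAA-free TAC libraries and 3.67, 2.33 and 1.51 CPM in BCAA-free sham libraries, against 2.40, 0.989 and 0.941 CPM in control TAC libraries and 1.57, 1.39 and 0.915 CPM in control sham libraries. The same 3 libraries, BCAA-free TAC 2, BCAA-free sham 1 and control TAC 1, were the highest of their groups for both genes.

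Cidea (ENSMUSG00000024526), a droplet protein of the same family best known from brown fat, showed the other pattern. It had 34.4, 33.8 and 34.4 CPM in BCAA-free TAC libraries and 32.8, 27.8 and 28.0 CPM in BCAA-free sham libraries, against 33.3, 27.2 and 27.9 CPM in control TAC libraries and 27.0, 29.8 and 26.9 CPM in control sham libraries. The highest library was 1.28 times the lowest, where for Plin1 that ratio was 11.8 and for Retn 23.4. Every library therefore held Cidea transcripts at a nearly even level, also those with the fewest reads of the other fat genes.

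Ucp1 (ENSMUSG00000031710, chr8:83290352-83298452, + strand) encodes the uncoupling protein that defines brown and beige adipocytes. BCAA-free TAC libraries held 3, 120 and 3 reads of it and BCAA-free sham libraries 249, 1 and 1, whereas control TAC libraries held 12, 0 and 2 and control sham libraries 0, 13 and 0. In CPM, BCAA-free sham library 1 was at 6.93 and BCAA-free TAC library 2 at 3.13, and the other libraries were between 0 and 0.420. A library with 0 reads allows up to 3 reads, which is 0.0825 CPM in control TAC library 2. Ucp1 is not listed in the table that compares control TAC with control sham, so no value is given for that comparison.

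Car3 (ENSMUSG00000027559, chr3:14863512-14872523, + strand) encodes carbonic anhydrase 3, an abundant enzyme of white fat that skeletal muscle and liver also make. It had 10.4, 36.9 and 6.64 CPM in BCAA-free TAC libraries and 17.2, 12.0 and 8.70 CPM in BCAA-free sham libraries, against 22.5, 4.84 and 9.97 CPM in control TAC libraries and 6.55, 5.13 and 6.09 CPM in control sham libraries. Control TAC library 1 held the second highest Car3 level of all. Skeletal muscle genes (4 of 10 markers listed) summed to 6.79 to 14.7 CPM in BCAA-free TAC, 3.98 to 5.71 CPM in BCAA-free sham, 2.996 to 5.18 CPM in control TAC and 3.35 to 3.91 CPM in control sham hearts. Of the 4, 2 were higher on the BCAA-free diet averaged over both operations, as were 5.19% of all genes. They were Mylpf, by 0.78 ± 0.14 (limma, adjusted p = 0.00445), and Tnni2, by 0.65 ± 0.17 (adjusted p = 0.0268) on the log2 scale. In TAC hearts 1 of 4 passed for diet, beside 3.38% of all genes: Mylpf at 1.10 ± 0.23 (limma, adjusted p = 0.0374). In BCAA-free TAC over BCAA-free sham hearts 1 of 4 passed, beside 4.32%: Tnnt3 at 2.54 ± 0.46 (limma, adjusted p = 0.0149). Tnnt3 had 9.53 CPM in BCAA-free TAC library 1. The part of these skeletal muscle genes in the Car3 level was not tested. In control TAC library 3, the one with 364 CPM of liver genes, Car3 was at 9.97 CPM.

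Ordered by group mean, 7 of the 8 genes ran from BCAA-free TAC through BCAA-free sham and control TAC to control sham, and Ucp1 was the exception. BCAA-free sham and control TAC were nearly tied for Cidea, at 29.55 and 29.46 CPM, and for Car3, at 12.64 and 12.44 CPM. The share of all genes in this order was not counted. Most of the markers varied together, so the 7 are not separate observations. Adipoq averaged 4.24 ± 3.58 CPM in BCAA-free TAC, 3.15 ± 1.59 in BCAA-free sham, 2.16 ± 2.04 in control TAC and 1.17 ± 0.465 in control sham hearts (SD, n = 3 each). The top place of BCAA-free TAC hearts rested on library 2 for 4 of these genes: without it, 3 of the 8 kept the order, Retn, Cfd and Cidea, and Plin1 averaged 1.60 CPM in BCAA-free TAC and 3.79 CPM in BCAA-free sham hearts, the first of these below the control TAC mean. With all libraries, neighbours in that order overlapped in range for these 7 genes, except that Retn in BCAA-free sham lay above control TAC and Cidea in BCAA-free TAC lay above BCAA-free sham.

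In sham hearts, where the diet was the only labelled difference, 4 of the 8 markers passed the test. All 4 were higher in BCAA-free sham hearts, where 1.05% of the 15596 genes tested were higher and 2.81% changed in either direction. Retn rose by 1.61 ± 0.29 on the log2 scale (3.05-fold; limma, adjusted p = 0.0174). Plin1 rose by 1.35 ± 0.26 (2.55-fold; limma, adjusted p = 0.0249), Cfd by 1.03 ± 0.19 (2.04-fold; limma, adjusted p = 0.0178) and Car3 by 1.03 ± 0.20 (2.04-fold; limma, adjusted p = 0.0258). Adipoq had a log2 difference of 1.29 ± 0.33 (limma, adjusted p = 0.0657) and Cidec one of 0.84 ± 0.30 (adjusted p = 0.163), so both missed the threshold. Cidea differed by 0.07 ± 0.08 (adjusted p = 0.694), and for Ucp1 the difference of 1.45 ± 1.25 (adjusted p = 0.591) was carried by 1 library. The median log2 difference of the 8 was 1.16, against 0.002 over all genes tested. The ranges of the groups did not overlap for 5 of the 8 genes, the 4 called and Adipoq, with BCAA-free sham higher, as for 11.9% of all genes tested.

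The sham calls depended on single libraries. Without BCAA-free sham library 1, the one with 249 Ucp1 reads, 0 of the 8 markers passed, and without BCAA-free sham library 2 also 0, while 99 and 68 genes passed in all. Without BCAA-free sham library 3, 2 markers passed, Cfd and Car3. Leaving out 1 control sham library kept the calls of Retn, Cfd and Plin1, but Car3 missed the threshold without control sham library 2, at 0.91 (limma, adjusted p = 0.0566). Without control sham library 1, Adipoq passed as well, at 1.57 (limma, adjusted p = 0.0357). The sizes moved less: over the 6 fits that left out 1 library, the log2 difference of Retn lay between 1.37 and 1.84 and that of Plin1 between 1.06 and 1.54. In the authors' deposited table, Adipoq also passed, with an adjusted p of 0.00279, and Ucp1 had no p-value.

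In TAC hearts the same contrast gave no call, and standard errors were larger than in sham hearts for each marker but Cidea and Ucp1. Of the 8 markers, 0 passed in BCAA-free TAC against control TAC hearts by limma, where 3.38% of the 16222 genes tested did, and 4 had an unadjusted p under 0.05. By edgeR 0 passed, and by DESeq2 2 passed, Retn and Cidec. Retn had the largest difference, 1.96 ± 0.49 on the log2 scale (3.89-fold; limma, adjusted p = 0.0662), with all BCAA-free TAC libraries above all control TAC libraries. Cfd differed by 1.55 ± 0.58 (adjusted p = 0.185) and Cidec by 1.22 ± 0.48 (adjusted p = 0.204). Adipoq differed by 1.07 ± 0.65 (adjusted p = 0.408), Plin1 by 0.89 ± 0.71 (adjusted p = 0.535), Ucp1 by 1.40 ± 1.08 (adjusted p = 0.516) and Car3 by 0.48 ± 0.65 (adjusted p = 0.729). Cidea, with its small spread, differed by 0.29 ± 0.08 (1.22-fold; limma, adjusted p = 0.0831). The groups did not overlap, BCAA-free TAC higher, for 2 of the 8, Retn and Cidea, as for 7.8% of all genes tested. The median of the 8 log2 differences was 1.14, against 0.004 over all genes.

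Leaving out BCAA-free TAC library 2 lowered the differences between TAC hearts, and leaving out control TAC library 1 raised them. Without BCAA-free TAC library 2, the log2 difference of Retn was 1.31, that of Adipoq 0.41, that of Cfd 0.93 and that of Car3 -0.25. Without control TAC library 1, Retn was at 2.04, Adipoq at 1.74, Cfd at 2.10 and Car3 at 1.01. Car3 also changed sign without control TAC library 2, to -0.04. With all libraries but BCAA-free TAC library 1, Retn passed the test at 2.22 (limma, adjusted p = 0.0465). The authors' deposited table gave Retn an adjusted p of 6.13e-05 and Cidec one of 0.0342 in this contrast.

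**Figure D2:**
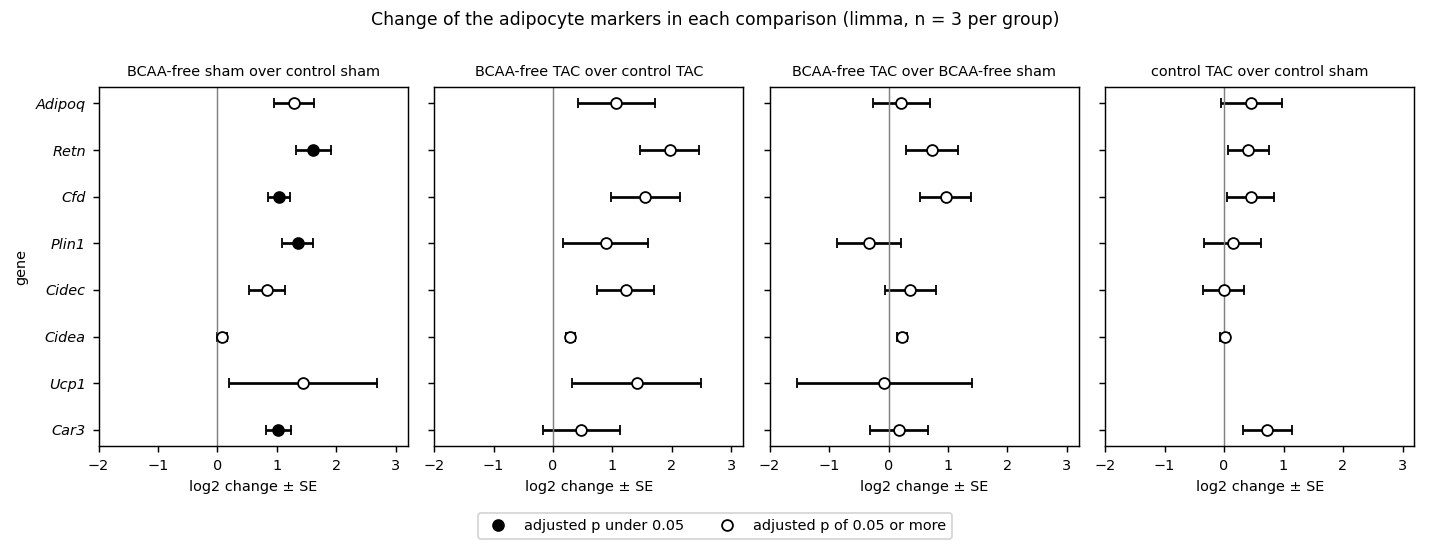
log2 change ± SE of each adipocyte marker (x axis; 1 row per gene) in the 4 pairwise comparisons of heart groups, 3 libraries per group; filled points have an adjusted p under 0.05 (limma). The 4 filled points, Retn, Cfd, Plin1 and Car3, all lie in the comparison of BCAA-free sham with control sham hearts, and the diet changes of the 8 genes are above 0 in both sham and TAC hearts.

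Averaged over both operations, a comparison added after the data were seen, Retn was the one marker that passed whichever library was left out. With 6 libraries per diet, 3 of the 8 markers were higher on the BCAA-free diet, where 5.19% of the 15458 genes tested were higher and 11.8% changed in either direction. Retn rose by 1.79 ± 0.30 on the log2 scale (3.45-fold; limma, adjusted p = 0.00284), higher in 6 of 6 BCAA-free libraries than in any control library. Cfd rose by 1.29 ± 0.34 (2.45-fold; adjusted p = 0.0271) and Cidec by 1.03 ± 0.32 (2.04-fold; adjusted p = 0.0484). Cidea differed by 0.18 ± 0.06 (adjusted p = 0.0533), Adipoq by 1.18 ± 0.41 (adjusted p = 0.0764), Plin1 by 1.12 ± 0.42 (adjusted p = 0.101), Car3 by 0.75 ± 0.38 (adjusted p = 0.219) and Ucp1 by 1.42 ± 0.97 (adjusted p = 0.370).

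Each library was left out of that fit in turn. Retn passed in 12 of 12 such fits, with a log2 change between 1.46 and 1.98 and an adjusted p of at most 0.0104. Cfd passed in 5 of the 12 and Cidec in 4. Without control TAC library 1 alone, 6 of the 8 markers passed, and without BCAA-free TAC library 2 alone 1 did. Without both libraries of over 100 Ucp1 reads, BCAA-free sham 1 and BCAA-free TAC 2, 1 marker passed: Retn at 1.42 ± 0.22 (limma, adjusted p = 0.0100), next to 0.89 ± 0.30 for Cfd (adjusted p = 0.126) and 0.66 ± 0.37 for Adipoq (adjusted p = 0.339).

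**Figure D3:**
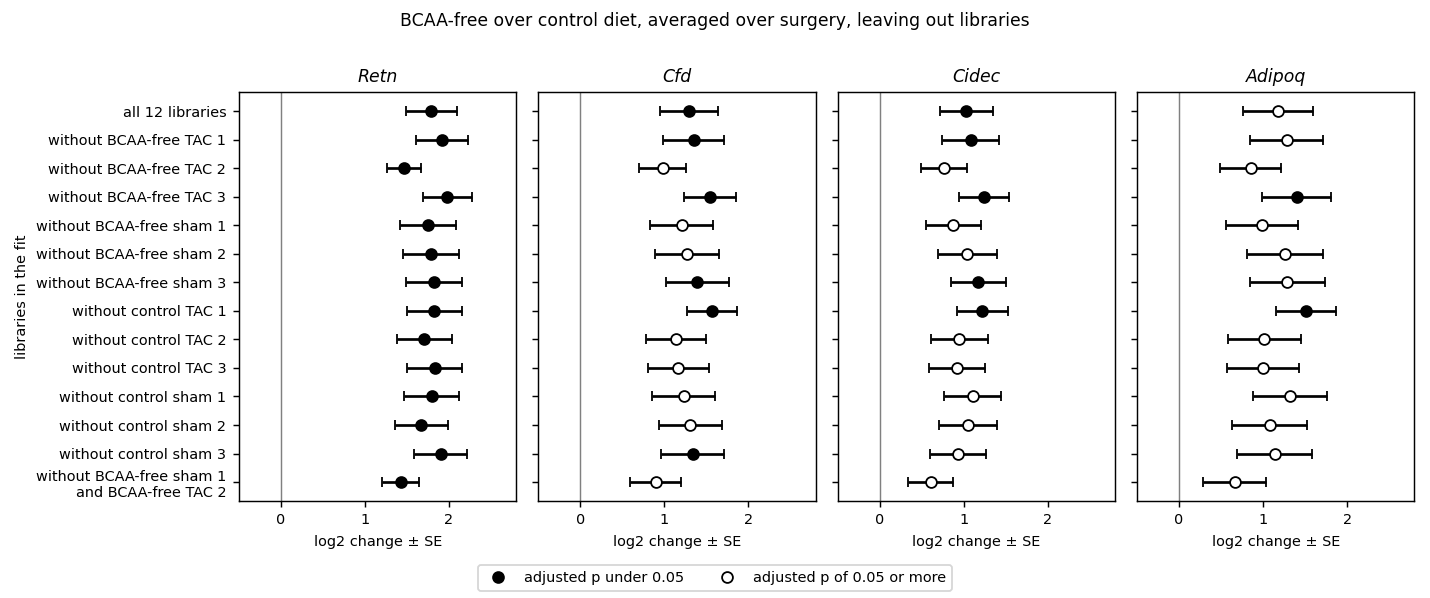
log2 change ± SE (x axis) of Retn, Cfd, Cidec and Adipoq on the BCAA-free over the control diet, averaged over TAC and sham, with all 12 libraries and with the named libraries left out (rows); filled points have an adjusted p under 0.05 (limma). Retn is filled in every row and stays between 1.42 and 1.98, while Cfd and Cidec are open in most rows.

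Pressure overload itself gave no call among the markers on either diet. In BCAA-free TAC against BCAA-free sham hearts, 0 of the 8 passed by limma, edgeR or DESeq2, where limma called 4.32% of the 15936 genes tested, and 2 had an unadjusted p under 0.05. Those were Cfd, at 0.96 ± 0.43 on the log2 scale (limma, adjusted p = 0.226), and Cidea, at 0.22 ± 0.08 (limma, adjusted p = 0.160). Cidea was the 1 marker whose BCAA-free TAC libraries all lay above the BCAA-free sham libraries, as 13.3% of all genes tested did. Retn differed by 0.73 ± 0.43 (adjusted p = 0.367), Adipoq by 0.22 ± 0.49 (adjusted p = 0.840), Cidec by 0.37 ± 0.43 (adjusted p = 0.673) and Car3 by 0.18 ± 0.49 (adjusted p = 0.878). Plin1 had a difference of -0.33 ± 0.54 (adjusted p = 0.772) and Ucp1 one of -0.07 ± 1.47 (adjusted p = 0.988). Without BCAA-free TAC library 3, Cfd passed at 1.47 (limma, adjusted p = 0.0287), and without BCAA-free TAC library 2 the differences of Adipoq and Car3 turned to -0.43 and -0.55.

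In control TAC against control sham hearts, 0 of the 7 markers listed passed by limma, edgeR or DESeq2, 0 had an unadjusted p under 0.05 in limma, and 5.34% of the 15873 genes tested passed. The largest difference was that of Car3, 0.73 ± 0.42 on the log2 scale (limma, adjusted p = 0.340). Adipoq differed by 0.46 ± 0.51 (adjusted p = 0.650), Cfd by 0.45 ± 0.39 (adjusted p = 0.550), Retn by 0.41 ± 0.35 (adjusted p = 0.537) and Plin1 by 0.15 ± 0.48 (adjusted p = 0.889). Cidea differed by 0.01 ± 0.08 (adjusted p = 0.967) and Cidec by -0.004 ± 0.35 (adjusted p = 0.995). Without control TAC library 1, the differences of Adipoq, Cfd and Plin1 were -0.21, -0.11 and -0.47. Over the 6 fits that left out 1 library, that of Retn lay between 0.17 and 0.64 and that of Car3 between 0.19 and 1.25. The difference between the 2 TAC responses, BCAA-free minus control, was tested for 7 markers; 0 passed by limma, edgeR or DESeq2, 0 had an unadjusted p under 0.05 in limma, and 0.0451% of the 15524 genes tested passed. It was 0.52 ± 0.69 for Cfd (adjusted p = 0.866), 0.32 ± 0.61 for Retn (adjusted p = 0.913) and -0.55 ± 0.77 for Car3 (adjusted p = 0.874).

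Most of the markers varied together from library to library. Over the 12 libraries, log2 levels of Cidec and Adipoq had a Pearson r of 0.943 (permutation p = 1e-05, the smallest the resampling can give; 3.5e-05 adjusted over 7 relations) and a Spearman rho of 0.923 (permutation p = 4e-05; 0.00028 adjusted). Without BCAA-free TAC library 2 and BCAA-free sham library 1, the libraries farthest from the Adipoq median, r was 0.867, and within groups it was 0.935. The ranking covered 12997 genes with a value in all 12 libraries and a mean of at least 0.5 CPM, without predicted genes. Among these, Cidec, Plin1, Car3 and Cfd were the 4 most like Adipoq, with r between 0.896 and 0.943. Retn ranked 30th, with r = 0.798 (permutation p = 0.00146; 0.00204 adjusted) and rho = 0.839 (permutation p = 0.00116; 0.00162 adjusted), and r fell to 0.586 without those 2 libraries. For Ucp1, r was 0.705 (permutation p = 0.00996; 0.0116 adjusted) and rho 0.521 (permutation p = 0.0856; 0.0856 adjusted). Without the same 2 libraries r was 0.191, so the relation of Ucp1 with Adipoq rested on them. Cidea ranked 230th, with r = 0.668 (permutation p = 0.0201; 0.0201 adjusted) and rho = 0.545 (permutation p = 0.0717; 0.0837 adjusted). The libraries of 1 group share their diet and operation, and these relations include the group differences.

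**Figure D4:**
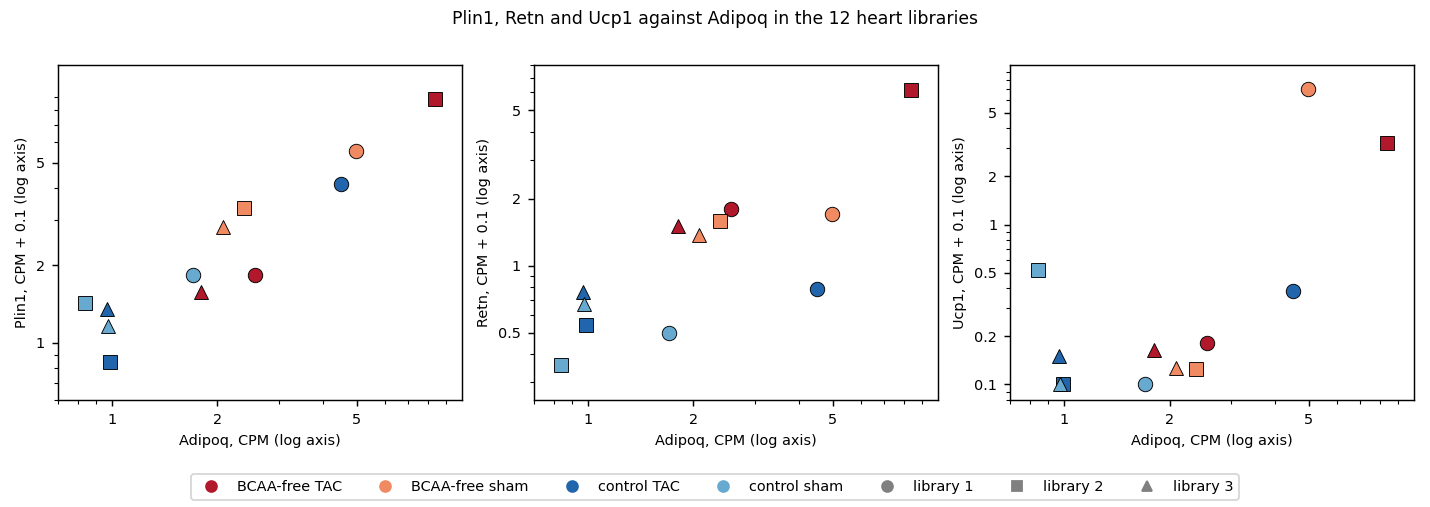
Plin1, Retn and Ucp1 (y axes, CPM + 0.1 on a log axis) against Adipoq (x axis, CPM on a log axis) in the 12 heart libraries; colour gives the group and the symbol the library number. Plin1 climbs with Adipoq over the 12 libraries, and in each group the library highest in Adipoq is also highest in Plin1. In both control groups, libraries 2 and 3 go the other way. Retn lies lower in control TAC library 1 (0.689 CPM) than in any BCAA-free library, and Ucp1 exceeds 3 CPM in only 2 libraries.

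The relation of Retn to Adipoq can be read within each library. Retn made up 40.0%, 42.0% and 43.9% of the summed Retn and Adipoq reads in BCAA-free TAC libraries, and 24.5%, 38.4% and 37.9% in BCAA-free sham libraries. It made up 13.2%, 30.8% and 40.6% in control TAC libraries, and 19.0%, 23.5% and 37.0% in control sham libraries. Control TAC library 1, with 29 Retn and 190 Adipoq reads, had the lowest share, with a 95% exact binomial interval of 9.05% to 18.5%, while BCAA-free TAC library 2, with 232 and 320 reads, had an interval of 37.9% to 46.3%. Shares on the 2 diets overlapped, since control TAC library 3 had 40.6%. For Plin1 against Adipoq the share stayed between 40.4% and 61.2% in all 12 libraries, and for Ucp1 against Adipoq it ran between 0% and 58.2%. These intervals cover counting error only.

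Outside the markers, the genes whose pattern was most like Adipoq were Gpc3 (r = 0.887), Car5b (0.880), Lyplal1 (0.879), Cdo1 (0.874), Aldh1b1 (0.870), Slc3a2 (0.869), Osr1 (0.863) and Zbtb22 (0.852), over 12 libraries. Cdo1, which encodes cysteine dioxygenase, had 4.12, 8.90 and 3.69 CPM in BCAA-free TAC libraries and 6.65, 5.28 and 4.75 CPM in BCAA-free sham libraries, against 4.77, 2.34 and 4.17 CPM in control TAC libraries and 2.54, 2.33 and 2.55 CPM in control sham libraries. The genes most like Ucp1 were Mier2 (r = 0.924), Dohh (0.882), Tmem45b (0.860), Fasn (0.847), Pygl (0.840), Zfp459 (0.838), Prkar2b (0.836) and Slc12a9 (0.811). Fasn, the fatty acid synthase, had 43.5, 175 and 31.5 CPM in BCAA-free TAC libraries and 103, 54.6 and 38.9 CPM in BCAA-free sham libraries, against 48.3, 36.5 and 41.3 CPM in control TAC libraries and 50.7, 44.1 and 36.1 CPM in control sham libraries. The 2 libraries with over 100 Ucp1 reads were thus also the 2 highest in Fasn. These genes were picked for their likeness, so their r values carry no test.

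Of 23 other white adipocyte genes tested for diet over both operations, 4 rose on the BCAA-free diet and 0 fell, where 5.19% of all genes tested were higher. Once the 8 listed as also expressed by other heart cells were left out, 15 of 22 were tested in BCAA-free against control sham hearts. The cell source of those remaining was not tested, and 1 of them, Aqp7, had 15.2 to 34.3 CPM over the 12 libraries. By limma 0 passed, where 2.81% of all genes did, 3 had an unadjusted p under 0.05, and the median log2 difference was 0.16. In TAC hearts 0 of 16 passed by limma, where 3.38% of all genes did, 2 had an unadjusted p under 0.05, and the median was 0.32. Averaged over both operations 1 of 15 passed: Sncg, gamma-synuclein, rose by 0.46 ± 0.12 on the log2 scale (limma, adjusted p = 0.0279). With TAC, 1 of 14 passed on the control diet, where 5.34% of all genes did, and 1 of 18 on the BCAA-free diet, where 4.32% did. In control TAC hearts Nnat, neuronatin, fell by 0.82 ± 0.19 on the log2 scale relative to control sham hearts (limma, adjusted p = 0.0404), and in BCAA-free TAC hearts Aqp7, a glycerol channel, fell by 0.47 ± 0.10 relative to BCAA-free sham hearts (limma, adjusted p = 0.0269). The 8 white adipocyte genes that other heart cells also express were far more abundant, 6170 to 8564 CPM in sum, led by Lpl. Of these, 3 rose on the BCAA-free diet averaged over both operations: Pnpla2, adipose triglyceride lipase, by 0.24 ± 0.06 on the log2 scale (limma, adjusted p = 0.0198), Cd36, a fatty acid transporter, by 0.25 ± 0.06 (adjusted p = 0.0255) and Lpl, lipoprotein lipase, by 0.29 ± 0.08 (adjusted p = 0.0410). In control TAC relative to control sham hearts 3 of the 8 fell: Lipe, hormone-sensitive lipase, by 0.49 ± 0.06 (limma, adjusted p = 0.00539), Cd36 by 0.39 ± 0.09 (adjusted p = 0.0423) and Fabp4, a fatty acid binding protein, by 0.31 ± 0.07 (adjusted p = 0.0424).

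Brown adipocyte genes beside Ucp1 and Cidea gave no diet call once 8 that were listed as also expressed by heart muscle were left out, while 2 rose with TAC. Whether the remaining genes came from fat cells or from other cells of the heart was not tested. The 8 of 15 that all tables list summed to between 101 and 115 CPM in the 12 libraries, a sum led by Gk and Acot11, whereas Dio2 ran between 0.972 and 8.13 CPM. In BCAA-free against control sham hearts 0 of 8 passed by limma, beside 2.81% of all genes. In BCAA-free against control TAC hearts 0 of 9 did, beside 3.38%. In both, 0 had an unadjusted p under 0.05. With TAC, 2 of 8 passed on the BCAA-free diet, beside 4.32% of all genes, and 1 of 9 on the control diet, beside 5.34%. Dio2, which activates thyroid hormone, rose in TAC hearts, by 1.30 ± 0.31 on the log2 scale on the BCAA-free diet (limma, adjusted p = 0.0419) and by 1.39 ± 0.27 on the control diet (limma, adjusted p = 0.0211). Its highest level, 8.13 CPM, was in BCAA-free TAC library 1, which held 3 Ucp1 reads. In the libraries rich in Ucp1, Dio2 had 3.03 CPM (BCAA-free TAC library 2) and 2.14 CPM (BCAA-free sham library 1). Acot11, a thioesterase of brown fat, rose by 0.49 ± 0.08 in BCAA-free TAC over BCAA-free sham hearts (limma, adjusted p = 0.0118). Kcnk3, a potassium channel that heart muscle also makes, rose by 0.35 ± 0.06 in BCAA-free over control sham hearts (limma, adjusted p = 0.0102). It was 1 of the 8 genes left out above, and 1.05% of all genes were higher there. Averaged over both operations, 2 of the 8 brown adipocyte genes that heart muscle expresses rose on the BCAA-free diet, beside 5.19% of all genes. They were Kcnk3, by 0.23 ± 0.05 (limma, adjusted p = 0.0120), and Cpt1b, which carries fatty acids into mitochondria, by 0.19 ± 0.05 (adjusted p = 0.0303). With TAC, 2 of these 8 fell on the control diet, Cpt1b by 0.47 ± 0.08 (limma, adjusted p = 0.0132) and Cox7a1, a subunit of cytochrome oxidase, by 0.73 ± 0.14 (adjusted p = 0.0204), and 1 on the BCAA-free diet, Pank1, which starts coenzyme A synthesis, by 0.42 ± 0.08 (adjusted p = 0.0190).

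Upstream, among genes that control fat cell formation and fat breakdown, single members changed in both directions. Of 16 tested in sham hearts 1 rose and 1 fell, which is 12.5% beside 2.81% of all genes: Adrb1, a beta-adrenergic receptor, rose by 0.64 ± 0.12 on the log2 scale in BCAA-free over control sham hearts (limma, adjusted p = 0.0203), and Mgll, monoglyceride lipase, fell by 0.38 ± 0.07 (limma, adjusted p = 0.0156). Averaged over both operations 2 of 16 rose, Adrb1 by 0.40 ± 0.09 (limma, adjusted p = 0.0131) and Pnpla2, named above, and Mgll fell by 0.33 ± 0.06 (adjusted p = 0.00422), beside 11.8% of all genes that changed in either direction. Cebpb, an early regulator of fat cell formation that many cells use, had 17.6 to 26.2 CPM in BCAA-free TAC and 38.1 to 48.1 CPM in control TAC hearts, and was the 1 of 17 that passed there, beside 3.38% of all genes, with a log2 difference of -0.98 ± 0.14 (limma, adjusted p = 0.00767). In control TAC over control sham hearts it rose by 1.49 ± 0.30 (limma, adjusted p = 0.0258). The comparisons with control TAC hearts share those libraries. Of 7 adipokine receptors, 0 passed by limma for diet in sham or in TAC hearts, with 1 at an unadjusted p under 0.05 in each. Averaged over both operations Cap1, a resistin receptor in humans, fell by 0.24 ± 0.06 on the BCAA-free diet (limma, adjusted p = 0.0164), and C3ar1, a complement receptor that myeloid cells also carry, rose by 1.08 ± 0.19 in BCAA-free TAC over BCAA-free sham hearts (limma, adjusted p = 0.0139).

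Levels of some markers of neighbouring tissues differed between these groups. The 6 of 12 thymus and T cell genes that all tables list summed to 0.783 to 11.7 CPM in BCAA-free TAC, 7.68 to 12.1 CPM in BCAA-free sham, 1.73 to 2.04 CPM in control TAC and 1.06 to 4.34 CPM in control sham hearts. In sham hearts 1 of the 7 tested passed for diet, beside 2.81% of all genes. It was Cd3g, a T cell receptor subunit, which rose by 2.21 ± 0.52 on the log2 scale (limma, adjusted p = 0.0472). Averaged over both operations 1 of 6 passed, beside 11.8% of all genes: Cd8b1, a chain of the CD8 co-receptor, at 1.96 ± 0.58 (limma, adjusted p = 0.0436). In BCAA-free TAC libraries 1, 2 and 3, Cd8b1 had 2.53, 0.0522 and 0.239 CPM, against 0.0237 to 0.0763 CPM in control TAC hearts. The summed thymus and T cell genes had 11.7, 0.783 and 1.65 CPM in those 3 BCAA-free TAC libraries. BCAA-free TAC library 2, the highest in fat markers, was the lowest in this sum, and control sham library 3 had Cd3d and Cd3g at 0. Atrial muscle genes (8 of 8 listed) summed to 2156 to 4259 CPM in BCAA-free TAC, 1232 to 1827 CPM in BCAA-free sham, 1494 to 2564 CPM in control TAC and 935 to 1476 CPM in control sham hearts. Pam or Nppa, one of the heart muscle genes above, led that sum in each library. Nppa alone had 867 to 2705 CPM in BCAA-free TAC, 269 to 492 CPM in BCAA-free sham, 475 to 1165 CPM in control TAC and 185 to 384 CPM in control sham hearts. The sum therefore does not measure atrial tissue alone. Nppa rose by 1.95 ± 0.33 on the log2 scale in BCAA-free TAC over BCAA-free sham hearts (limma, adjusted p = 0.0125), 1 of 8 beside 4.32% of all genes. Averaged over both operations, Nppa at 0.96 ± 0.28 (limma, adjusted p = 0.0401) and Pam at 0.28 ± 0.08 (adjusted p = 0.0326) passed, 2 of 8 beside 11.8%. For diet in TAC hearts the 8 atrial genes ran from -2.51 to 1.28, with 7 above 0. Of the epicardial genes, 8 of 12 are listed in all tables, and most of their sum was the complement gene C3, at 157 to 224 CPM in BCAA-free TAC, 114 to 137 CPM in BCAA-free sham, 129 to 236 CPM in control TAC and 103 to 181 CPM in control sham hearts. The other 7 summed to 9.07 to 19.1 CPM in BCAA-free TAC, 6.27 to 11.2 CPM in BCAA-free sham, 9.41 to 22.4 CPM in control TAC and 6.65 to 9.30 CPM in control sham hearts. Wt1, a transcription factor of the epicardium, had 2.39 to 4.56 CPM in BCAA-free TAC and 4.11 to 4.65 CPM in BCAA-free sham hearts, against 6.06 to 7.05 CPM in control TAC and 4.78 to 7.78 CPM in control sham hearts. It was the 1 of 5 that passed for diet averaged over both operations, beside 11.8% of all genes, with a log2 difference of -0.56 ± 0.16 (limma, adjusted p = 0.0348). In BCAA-free TAC over BCAA-free sham hearts 2 of 11 epicardial genes passed, beside 4.32% of all genes. C3 rose by 0.58 ± 0.12 (limma, adjusted p = 0.0229) and Muc16 by 1.87 ± 0.41 (adjusted p = 0.0309). Muc16 was near the floor, at 0.0278 to 0.231 CPM in BCAA-free sham and 0.549 to 0.783 CPM in BCAA-free TAC hearts. In BCAA-free sham library 1, 3 reads are 0.0835 CPM. The part of these tissues in the marker differences was not tested, and the labels give no dissection batch within which to repeat them. Nerve genes lay between 32.4 and 40.8 CPM, lung genes between 0.686 and 2.09 CPM and red blood cell genes between 274 and 776 CPM over the 12 libraries. In control TAC relative to control sham hearts, 5.34% of all genes passed. There 1 of 7 nerve genes did, Dbh at -1.02 ± 0.22 (limma, adjusted p = 0.0324), and 1 of 6 red blood cell genes, Hbb-bs at -0.30 ± 0.07 (adjusted p = 0.0458). For diet in sham hearts 1 of 5 red blood cell genes passed, beside 2.81% of all genes: Hbb-bt at -0.41 ± 0.09 (limma, adjusted p = 0.0340).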

How the data were processed

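RNA from mouse heart was measured in 4 groups of 3 libraries; Trizol extraction was followed by selection of polyadenylated RNA, per the labels' protocols. Per the submitters' processing notes, the tools were DESeq2, Subread 1.5.2, STAR 2.5.2b and Trimmomatic 0.36, and the genome build was GRCm38 (mm10); whether reads were counted by strand is not given in the sources used here, so genes that overlap others may share reads. The authors deposited 4 tables, one per pair of groups, whose library columns hold a signal, namely read numbers scaled by 1 size factor per library and table. Beside it they deposited log2 fold changes and p-values of their own, per the file headers.

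Undoing that scaling gave whole reads for 100% of values at a tolerance of 0.001, with 0 genes different between the tables of a library. CPM and RPKM were computed from these reads, with exon lengths and coordinates from GENCODE M21. Genes averaging 10 or more in the libraries compared were tested on the log2(value + 4) scale with limma 3.58.1 (R 4.3.3), its trend option on, with Benjamini-Hochberg adjustment over all genes tested; this scale understates the change of low genes. The written design foresaw a test for raw counts and one for normalised values, and the values proved to be normalised. As alternatives, edgeR 4.0.16 and DESeq2 1.42.0 were run on the recovered reads. The scripts were tested on simulated data. The markers, the other gene lists and the motifs were chosen with earlier results of these data known, and lists are described by counts and medians only, and summed levels set side by side cover the genes that all tables list. Other genes named are those of a list past the threshold, at most 4 per list and comparison by smallest adjusted p, and the 8 genes most like Adipoq and like Ucp1 by Pearson r of log2(CPM + 0.1). Predicted genes, genes averaging under 0.5 CPM and genes without a value in every library were left out of that likeness. Heart muscle genes served as a check of the tissue, and those past the threshold are not given unless they were also on another list.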

Additional observations from a re-analysis of the deposited data

How the results depend on the processing

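Retn had 8 to 232 reads per library and Ucp1 0 to 249, and with 3 libraries per group 1 library can decide a call. Retn on the BCAA-free diet, averaged over both operations, kept its direction and its side of the threshold under each alternative, with a log2 change between 1.37 and 2.12. Of all alternative log2 changes of single markers, 677 kept direction and side, 32 lost the threshold, 18 gained it and 46 changed sign, none of the sign changes in a called value. Group mean levels moved by more than their SD in 2 of 94 rescalings, both Cidea in BCAA-free TAC hearts, at 34.7 and 35.0 CPM. The cause of these shifts was not tested.

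With DESeq2, counts of all genes were 1544 for control TAC against control sham, 1159 for BCAA-free TAC against BCAA-free sham, 826 for diet in sham hearts, 1181 for diet in TAC hearts, where it called 2 markers, and 109 for the difference of TAC responses. For that difference, a pseudocount of 1 and a mean of at least 50 each gave 4 genes. Same-numbered libraries deviated together by correlations between -0.09 and 0.22, and differently numbered ones by correlations between -0.17 and 0.10. No label says that a number marks a shared batch, and these values do not settle whether the numbers pair the samples. The replicate block gave 713 genes for diet in sham hearts, against 438 without it. It gave 1275 genes and 1 marker, Retn, for diet in TAC hearts, against 548 genes and 0 markers without it. For the difference of TAC responses it gave 3 genes.

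With 1 library left out, counts of all genes ranged from 300 to 659 for TAC on the control diet, 106 to 1199 for TAC on the BCAA-free diet, 68 to 1020 for diet in sham hearts, 138 to 1044 for diet in TAC hearts, 2 to 15 for the difference of responses and 1062 to 2484 for the averaged diet. Counts of markers ranged from 0 to 1 for TAC on the BCAA-free diet, 0 to 5 for diet in sham hearts, 0 to 1 for diet in TAC hearts and 1 to 6 for the averaged diet. Without both control TAC libraries 2 and 3, the lone control TAC library is assumed to vary like the others: TAC on the control diet then had 3 markers, diet in TAC hearts 0 genes, the difference of responses 1 gene, and the averaged diet 850 genes and 1 marker. Without both BCAA-free sham library 1 and BCAA-free TAC library 2, added after seeing the data, TAC on the BCAA-free diet had 3 genes, the difference of responses 0, with 0 markers, and the averaged diet 563 genes and 1 marker.

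Sign changes of uncalled log2 changes were these. For TAC on the control diet, Cidec was 0.0906 with edgeR, 0.0922 with DESeq2, 0.0069 with a pseudocount of 16 and 0.76 without control TAC libraries 2 and 3. With 1 library left out, Adipoq ran from -0.21 to 0.80, Cfd from -0.11 to 0.75, Plin1 from -0.47 to 0.62, Cidec from -0.39 to 0.21 and Cidea from -0.058 to 0.047. For TAC on the BCAA-free diet, Plin1 was 0.0918 with edgeR and 0.097 with DESeq2, Ucp1 0.24 with a pseudocount of 1, and Adipoq -0.055 and Car3 -0.30 without both libraries rich in Ucp1. With 1 library left out, Adipoq ran from -0.43 to 0.67, Plin1 from -1.14 to 0.13, Cidec from -0.16 to 0.79, Ucp1 from -1.48 to 1.85 and Car3 from -0.55 to 0.70. For diet, Cidea in sham hearts ran from -0.0078 to 0.134 and Car3 in TAC hearts from -0.25 to 1.01; without control TAC libraries 2 and 3, Adipoq was -0.27, Plin1 -0.36 and Car3 -0.59 in TAC hearts. For the difference of responses, Adipoq ran from -0.89 to 0.43, Retn from -0.33 to 0.71, Cfd from -0.10 to 1.07, Plin1 from -1.28 to 0.14 and Cidec from -0.16 to 0.79. Retn was -0.25 without both libraries rich in Ucp1, and Cfd -0.59 and Cidec -0.40 without control TAC libraries 2 and 3.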

Other observations

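Values of 2 more genes were picked after they were seen. Pparg, the master regulator of fat cell formation, lay between 9.40 and 13.3 CPM over the 12 libraries. Adrb3, the beta-adrenergic receptor of fat cells, reached 1.17 CPM in BCAA-free TAC library 2 and 0.807 CPM in BCAA-free sham library 1, and lay between 0.0825 and 0.309 CPM in the other 7 libraries whose tables list it.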
